A study of Drosophila melanogaster with 12 samples.

Results

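The genes described here encode proteins of the mitochondrial ribosome, and they were measured in sorted fly neurons with and without a parkin mutation. They were taken by name, as the probe sets annotated with a single gene symbol that starts with mRpL (large subunit) or mRpS (small subunit). This gave 71 probe sets for 69 genes, 44 of the large and 25 of the small subunit by symbol alone, out of 11982 genes with a symbol of their own on the array. For the 2 genes with a pair of probe sets, mRpL47 and mRpS11, the probe set with the higher mean over the 12 arrays stands for the gene. Another 4 genes of the family, mRpL34, mRpL37, mRpL53 and mRpS10, had no probe set of their own by this rule and were not analysed here.

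The mitochondrial ribosome, or mitoribosome, translates the few proteins that the mitochondrial genome encodes, which are core subunits of the respiratory chain and the ATP synthase. Its small subunit reads the messenger RNA and its large subunit joins the amino acids, and all of its proteins are encoded in the nucleus in animals and imported into the organelle. Parkin is a ubiquitin ligase that marks damaged mitochondria for removal, and fly mutants that lack it have long been used to study mitochondrial damage in neurons and muscle. Dopaminergic neurons release dopamine and cholinergic neurons acetylcholine.

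Brain neurons of adult Drosophila melanogaster that carried green fluorescent protein were sorted in pools of 115 cells, each from at least 15 brains. There were 4 groups of 3 arrays: dopaminergic neurons from controls, dopaminergic neurons from parkin null mutants, cholinergic neurons from controls and cholinergic neurons from parkin null mutants. All flies were kept at 25 °C, and all brains went through a trypsin incubation of 45 min at 37 °C before sorting. The driver of the fluorescent protein, the control genotype, the parkin allele, and the age and sex of the flies are not given in the sources used here. Amplified cDNA was hybridised to Affymetrix Drosophila 2.0 arrays, and the values are log2 intensities, so a difference of 1 is a doubling of signal. An intensity depends on the probes as well as on the RNA, so the level of one gene is not set against that of another. A pool with fewer cells of the intended type and one with less RNA per cell cannot be told apart. The title of the series contrasts neurons that are sensitive with those that are not, and the comparisons below ask how mitoribosomal genes differed between genotypes and between neuron types.

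Dopaminergic mutant replicate 3, the array with the title code F6, stood apart from the rest before any gene was compared. The mean of 4 neuron markers was 6.59 on it, 9.13 on dopaminergic mutant replicate 1 and 10.14 to 11.33 on the rest. The mean of 5 dopaminergic markers was 5.67 on it, against 9.54 and 11.22 on the other dopaminergic mutant arrays and 10.75 to 11.47 in dopaminergic controls. Both cholinergic markers together averaged 5.58 on it, against 8.61 to 10.79 elsewhere, although ChAT and VAChT were also bright on the other dopaminergic arrays. The 5 muscle markers averaged 6.15 on F6 and 5.08 to 6.01 elsewhere, and the 7 glial markers 4.58 and 4.22 to 6.69. The 7 fat body markers averaged 6.72 on F6 and 5.53 to 6.95 elsewhere. Dim probe sets in general also read higher on F6, as given below. The median of all 18769 probe sets ran from 5.59 to 6.30 per array, highest on F6 and lowest on cholinergic mutant replicate 3. Counts of higher and lower genes, medians and the differences of named genes that involve dopaminergic mutants are therefore also given without F6. Those values still include dopaminergic mutant replicate 1, whose neuron marker mean was the next lowest. Counts of groups that do not overlap, of direction in both neuron types, and of higher oxidative phosphorylation and cytosolic ribosomal genes include F6.

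Most readings of mitoribosomal genes lay below 8, and a smaller share of these genes than of all probe sets was bright on at least 6 arrays. A log2 intensity of 8 was reached by 8.67% to 17.6% of all probe sets per array. Of the 69 mitoribosomal genes 4 to 10 reached it (5.80% to 14.5%), a lower share on every array. Of their 828 readings, 75 reached it. It was reached on no array by 37 genes (53.6%, against 49.4% of all probe sets), on 1 to 5 arrays by 30 genes (43.5% against 39.7%) and on at least 6 arrays by 2 genes (2.90% against 10.95%). Those 2 were mRpS5 and mRpS25, both of the small subunit. Against the median of each array, 12 of the 69 genes were at or above it on all 12 arrays, and mRpS2 was below it on every one. Per array, 30 to 49 of the 69 genes were at or above it. The filter described below was passed by 56 of the 69 genes and by 12460 of all 18769 probe sets. The genes were thus rarely bright, but they were not dim as a set beside the rest of the array.

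mRpS5, a small subunit protein whose bacterial counterpart bears on the accuracy of decoding, measured 12.07, 12.22 and 9.10 in dopaminergic controls. It measured 11.49, 10.81 and 6.89 in dopaminergic mutants, 9.57, 11.69 and 11.31 in cholinergic controls, and 11.66, 10.62 and 11.60 in cholinergic mutants. All readings but that on F6 were above 8, and the 4 groups overlapped. mRpS25, a small subunit protein particular to mitochondria, is described with the cholinergic comparison.

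A gene's reading was often high on single arrays. Of the 32 genes that reached 8 on any array, 16 did so on 1 array. Within a group of 3, the range was widest for mRpS31, mRpL24, mRpL50, mRpL4 and mRpL23. mRpS31, which encodes a small subunit protein particular to mitochondria, measured 11.62, 4.22 and 4.73 in cholinergic mutants, a range of 7.40. mRpL24, whose bacterial counterpart lies by the exit of the peptide tunnel, measured 10.83, 5.41 and 12.75 in dopaminergic controls, a range of 7.34. mRpL4, whose bacterial counterpart lines the tunnel, measured 9.81, 4.09 and 4.36 in the same arrays. Each of these genes had high and low arrays inside one group, so that their group means rest on 1 or 2 arrays.

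Other mitoribosomal genes were even across the arrays. Over the 12 arrays 17 genes had a range under 2 and 16 genes a range over 4. Among genes at or above the array median on every array, the standard deviation (SD) over the 12 arrays was smallest for mRpS17 (0.46), mRpL36 (0.56), mRpL2 (0.56), mRpS26 (0.59) and mRpL27 (0.65). mRpL2, a protein next to the catalytic centre of the large subunit, measured 7.63, 7.79 and 7.69 in dopaminergic controls and 8.18, 7.25 and 8.96 in dopaminergic mutants. It measured 7.43, 7.96 and 7.31 in cholinergic controls and 7.49, 7.06 and 6.81 in cholinergic mutants. The highest reading of mRpL2 was that on F6. Among the 56 mitoribosomal genes that passed the filter described next, the median SD over the arrays was 0.84, against 1.01 over all 12460 probe sets that passed. Without the filter both medians were 0.829, over the 69 genes and over all 18769 probe sets.

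**Figure D1:**
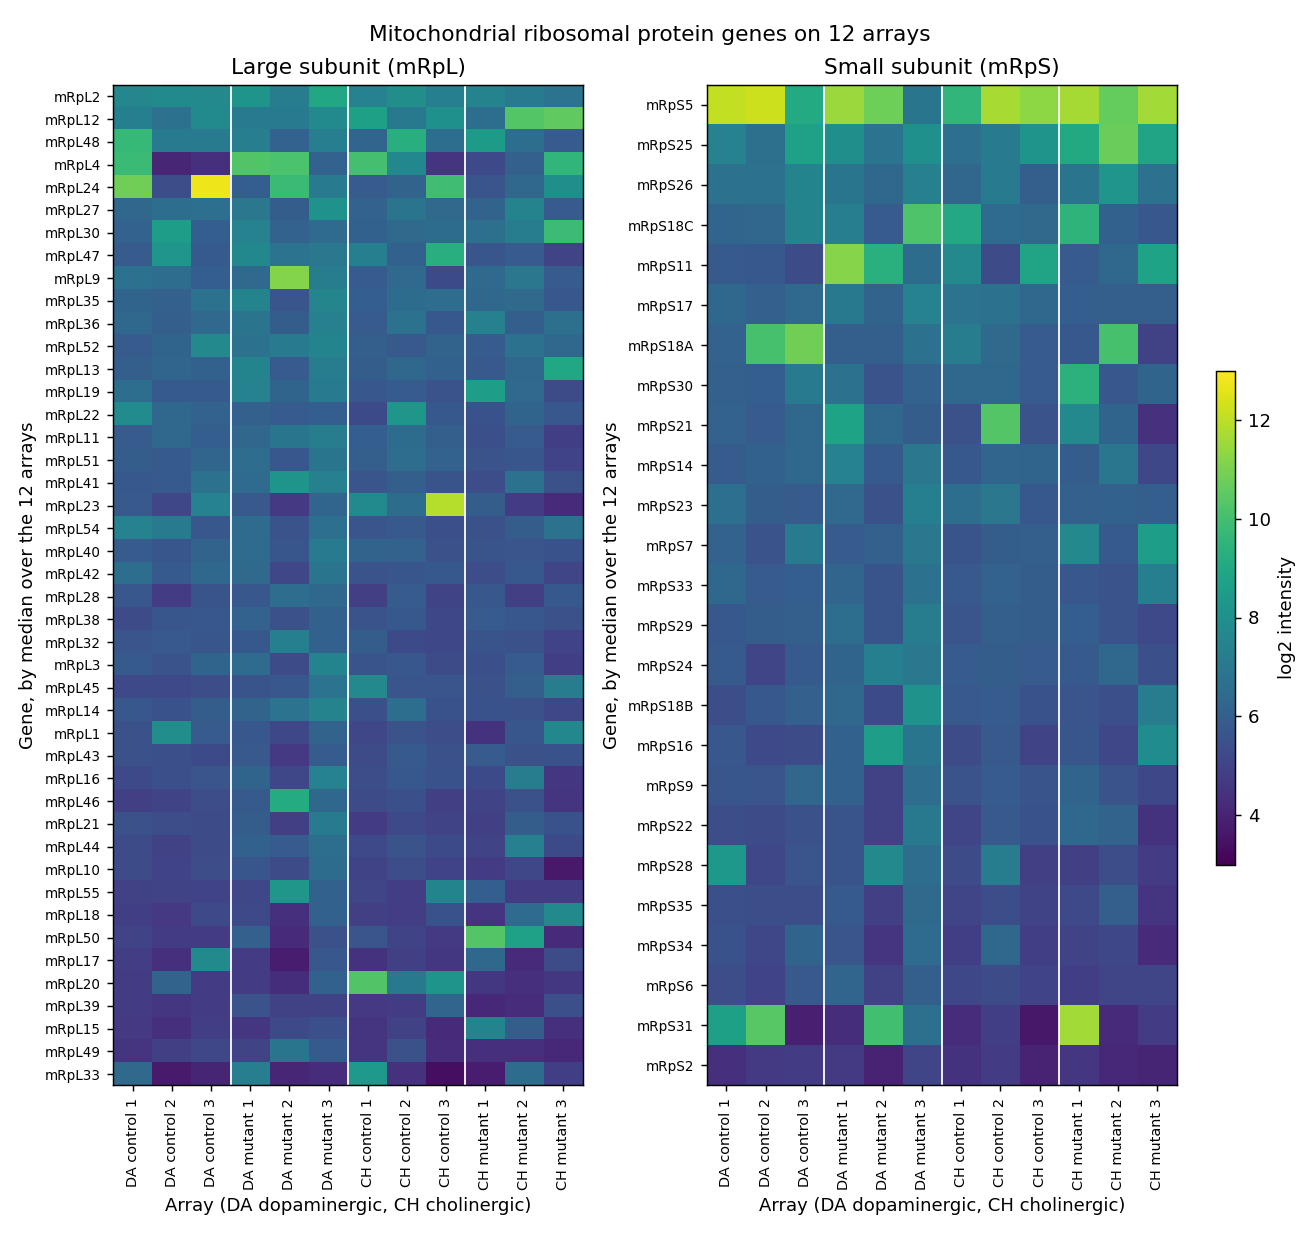
Heat map of the log2 intensity of the 44 large subunit genes (left) and 25 small subunit genes (right) on the 12 arrays, with white lines between the 4 groups and genes ordered by their median over the arrays. Bright cells are scattered over single arrays, mRpS5 is bright on every array but dopaminergic mutant 3 (F6), and most other cells lie below 8.

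The median over the 69 genes was highest on F6. It was 5.87, 5.76 and 5.98 in dopaminergic controls, 6.25, 5.88 and 6.81 in dopaminergic mutants, 5.73, 5.96 and 5.61 in cholinergic controls, and 5.75, 5.95 and 5.47 in cholinergic mutants. The median of all probe sets was also highest on F6 and lowest on cholinergic mutant replicate 3. On dopaminergic mutant replicate 2, however, the median of all probe sets (5.65) was below those of the dopaminergic controls (5.76 to 5.88), while the mitoribosomal median (5.88) lay within theirs (5.76 to 5.98). The large subunit median was 5.81, 5.69 and 5.85 in dopaminergic controls and 6.21, 5.90 and 6.73 in dopaminergic mutants. In cholinergic neurons it was 5.68, 5.88 and 5.55 in controls and 5.59, 5.95 and 5.48 in mutants. The large subunit medians of the dopaminergic mutant arrays thus lay above those of all dopaminergic controls, with 5.90 on dopaminergic mutant replicate 2 against 5.85 at the nearest. The small subunit median was 6.06, 5.86 and 6.06 in dopaminergic controls and 6.27, 5.87 and 6.87 in dopaminergic mutants, and these overlapped. In cholinergic neurons it was 5.75, 6.14 and 5.86 in controls and 5.98, 6.02 and 5.45 in mutants. Cholinergic controls and mutants overlapped for both subunits.

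When every array was centred on the median of all probe sets, the mitoribosomal median on F6 was 6.33 and that on the other 11 arrays ran from 5.69 to 6.06. After quantile normalization it was 6.44 against 5.72 to 6.08. F6 therefore stayed highest on each scale. The next arrays after centring were dopaminergic mutant replicate 1 (6.06), dopaminergic mutant replicate 2 (6.05) and cholinergic mutant replicate 2 (6.04), which were nearly equal. Proteins of the cytosolic ribosome went the other way on F6: the median over their 41 genes was 6.99 there and 7.15 to 8.83 on the other arrays.

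**Figure D2:**
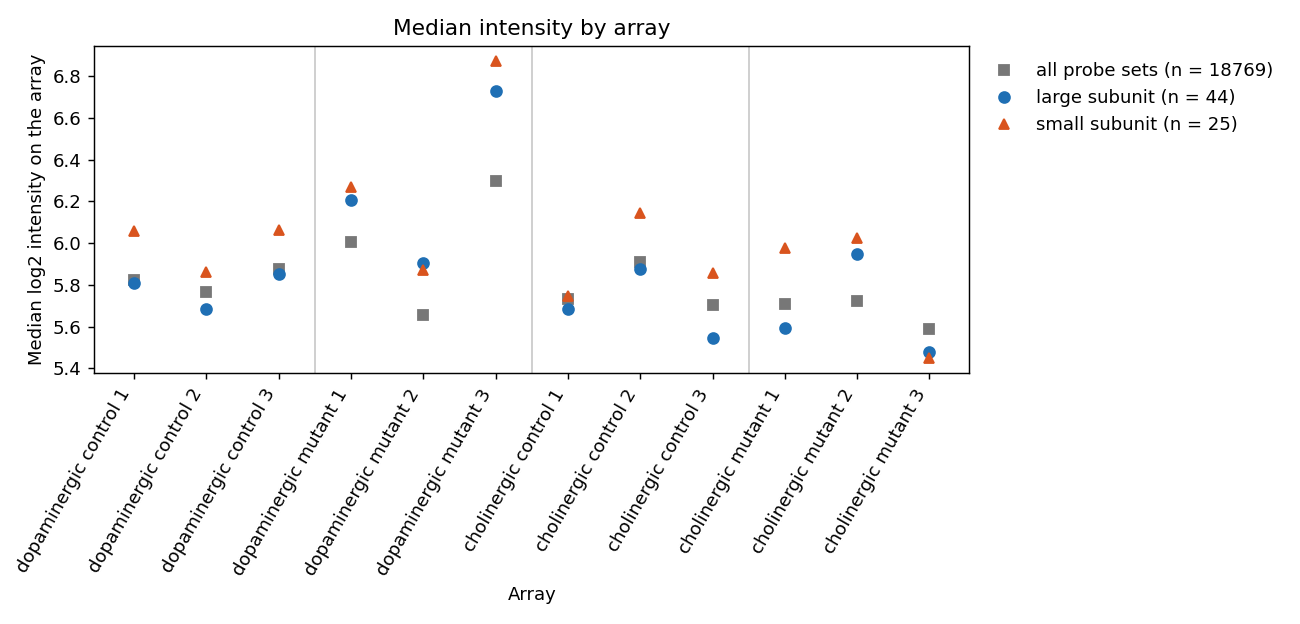
Median log2 intensity per array of the large subunit genes, the small subunit genes and all probe sets, with vertical lines between the 4 groups. Dopaminergic mutant 3 (F6) is highest for each of the 3 sets, at 6.73, 6.87 and 6.30.

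The dependence of the readings on F6 was measured as each gene's value on F6 minus its median on the other 11 arrays. Over the 69 mitoribosomal genes the median of these deviations was 1.03, and 62 genes were above 0. Over all probe sets it was 0.76. The large subunit had a median of 1.04, with 40 of 44 genes above 0, and the small subunit 0.96, with 22 of 25 above 0. On the other 11 arrays the same median over mitoribosomal genes ran from −0.37 to 0.50, highest on dopaminergic mutant replicate 1.

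The deviation differed with brightness. The genes were split into 3 parts of 23 genes by their median on the other 11 arrays. The median deviation on F6 was 1.16 over the dimmest part, 1.11 over the middle part and 0.73 over the brightest part. All probe sets, split in the same way, gave 0.87, 0.92 and 0.16. Split within each subunit, the medians from dim to bright were 1.08, 1.04 and 0.93 for the large subunit and 1.11, 1.17 and 0.21 for the small subunit. The low value in the bright part of the small subunit was a median over 9 genes. The brightest part began at a median of 6.09 for the mitoribosomal genes and of 6.26 for all probe sets. F6 held the highest of the 12 readings for 24 mitoribosomal genes (34.8%), 14 of the large and 10 of the small subunit, against 28.8% of all probe sets. Cholinergic mutant replicate 3 held the lowest reading for 27 genes (39.1%), against 40.5% of all probe sets. The marker values of F6 stand above, and their part in these deviations was not tested.

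mRpS5 was the exception among the mitoribosomal genes. It was the single one with a median of at least 8 on the other arrays, it measured 6.89 on F6 against a median of 11.49 elsewhere, and its lowest other reading was 9.10. A reading on F6 at least 3 below the median elsewhere was seen for 52.7% of the 1988 probe sets that were as bright on the other arrays. The same share was 23.1% on dopaminergic mutant replicate 1 and 2.35% to 15.5% on the rest. The next largest deviations below 0 were those of mRpL4 (−1.52), mRpS21 (−0.30), mRpL33 (−0.15) and mRpL22 (−0.09), and all 4 readings were inside the range of the other arrays. The largest deviations above 0 were those of mRpS18C (3.78), mRpS18B (2.35), mRpL16 (1.98), mRpS31 (1.97) and mRpL3 (1.94). mRpS18C measured 10.24 on F6 and 5.72 to 9.51 on the other arrays. mRpL3, which reaches towards the catalytic centre of the large subunit, measured 7.53 on F6 and 4.85 to 6.48 elsewhere.

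**Figure D3:**
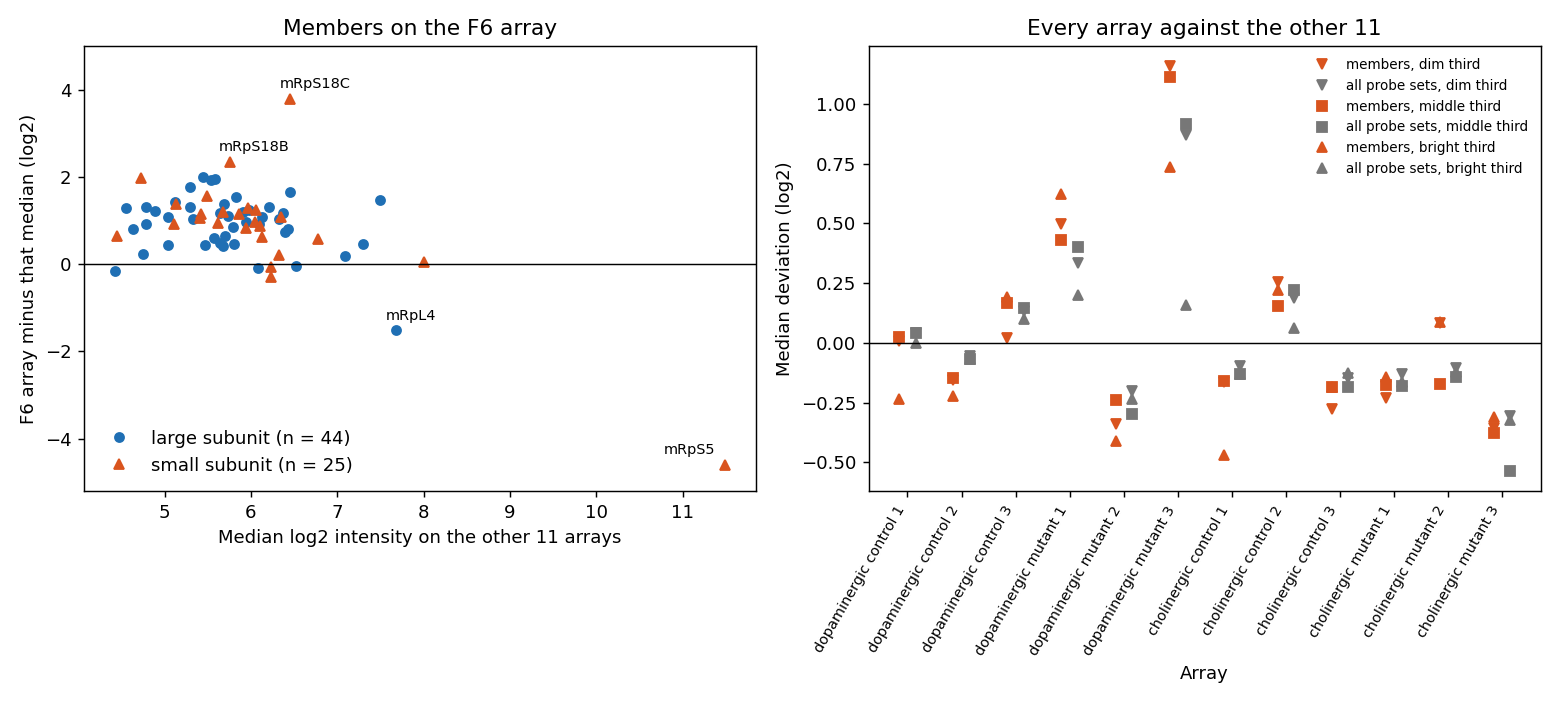
Left, the value on the F6 array minus the median on the other 11 arrays against that median, for each large subunit gene (circles) and small subunit gene (triangles); most points lie above 0 and mRpS5 lies at −4.61. Right, the median deviation of each array from the other 11, for the dim, middle and bright parts of the mitoribosomal genes and of all probe sets, where F6 (dopaminergic mutant 3) reaches 1.16, 1.11 and 0.73 for the mitoribosomal genes.

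Differences between groups were tested with limma on 12460 probe sets, those with a reading no lower than the array median on 3 or more of the 12 arrays. Among them were 56 of the 69 mitoribosomal genes, 34 of the large and 22 of the small subunit. The other 13 genes were too dim to be tested. All 12 arrays shared 1 estimate of the spread, and p-values were adjusted over all 12460 probe sets by the method of Benjamini and Hochberg, with a threshold of 0.05. Whether pools of the same group came from different sets of flies is not stated in the labels, so these p-values measure the spread between the arrays and nothing beyond it. No mitoribosomal gene passed the threshold in any of the 5 comparisons. Differences are given on the log2 scale with the standard error (SE) of limma.

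In dopaminergic neurons, more mitoribosomal genes read higher than lower in parkin mutants. Without F6 fewer of them were higher, and the share over all probe sets fell as well. Of the 56 genes 0 passed the adjusted threshold, as did 0% of all probe sets. Of the 56 genes 42 were higher in mutants, against 59.7% of all probe sets. The median difference was 0.50 over the large subunit, with 26 of 34 genes higher, and 0.25 over the small subunit, with 16 of 22 higher. Over all probe sets it was 0.18. At an unadjusted p under 0.05 there were 5 genes, all higher in mutants, against 4.49% of all probe sets. The 3 control and 3 mutant readings did not overlap for 8 genes, 7 of them higher in mutants, against 9.00% of all probe sets. Some dim genes passed the filter through the group where they were high, such as mRpS16, which reached the array median on the 3 dopaminergic mutant arrays and 1 other, so that these counts are a description of the tested genes.

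Without F6 34 of the 56 genes were higher (60.7%), against 48.0% of all probe sets. The large subunit then had a median difference of 0.24, with 24 of 34 genes higher, and the small subunit −0.13, with 10 of 22 higher. The small subunit median thus turned its sign with this 1 array, while the median over all probe sets was −0.02. An unadjusted p under 0.05 was then found for 3 genes, all higher, against 3.91% of all probe sets. With all 12 arrays centred on their medians, 37 genes were higher, with medians of 0.34 for the large and 0.09 for the small subunit and of 0.02 over all probe sets. After quantile normalization 39 were higher, with medians of 0.57, 0.30 and 0.16.

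The mitoribosomal gene with the smallest p here was mRpS24, which encodes a small subunit protein. It measured 5.81, 5.09 and 5.85 in dopaminergic controls and 6.20, 7.34 and 7.02 in mutants. The mutant readings were all above those of the controls, by 1.27 ± 0.42 (SE) on average, with an adjusted p of 0.905, and by 1.19 without F6. In cholinergic neurons mRpS24 measured 5.92, 5.93 and 5.86 in controls and 5.81, 6.37 and 5.45 in mutants.

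The largest difference among the 56 genes was that of mRpS11, whose bacterial counterpart sits on the platform of the small subunit. It measured 5.84, 5.76 and 5.32 in dopaminergic controls and 11.20, 9.33 and 6.54 in mutants. The mutants lay higher by 3.38 ± 1.24 (SE), with an adjusted p of 0.935. The F6 reading was the lowest of the 3 mutant readings, and the difference was 4.62 without it. The array weights of limma gave dopaminergic mutant replicate 1 a weight of 4.56 and the others of its group 0.28 and 0.41. With these weights the difference was 5.10 and passed the threshold, with an adjusted p of 0.0185. The share of all probe sets called with them is not given here. In cholinergic neurons mRpS11 measured 7.71, 5.29 and 8.85 in controls and 5.88, 6.33 and 8.80 in mutants, so that readings near 9 also came from controls of the other neuron type. The second probe set of mRpS11 differed by 2.01 between dopaminergic mutants and controls, but also by 1.99 between cholinergic mutants and controls, where the first gave −0.28. Its difference of the effects was 0.02 against 3.66 for the first, so the probe sets disagree on whether the neuron types differ.

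Another 3 genes completed the 5 with the smallest p among those higher in dopaminergic mutants. The difference was 1.09 ± 0.45 (SE) for mRpL14, 1.79 ± 0.75 for mRpS16 and 1.24 ± 0.54 for mRpL41, each with an adjusted p of 0.935. mRpL14 belongs to the interface of the subunits, and its F6 reading of 7.46 was its highest. Without F6 its difference was 0.76, while those of mRpS16 and mRpL41 were 1.94 and 1.24. Control and mutant readings did not overlap for mRpL14 and mRpS16.

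Lower in dopaminergic mutants, with the smallest p, were mRpS18A, mRpL24, mRpS5, mRpL22 and mRpL48. mRpS18A measured 6.13, 10.10 and 10.83 in controls and 6.04, 6.04 and 6.74 in mutants. Its difference was −2.75 ± 1.39 (SE) with an adjusted p of 0.935, and 1 control array lay within the mutant readings. Without F6 it was −2.98. mRpS5 had a difference of −1.40 ± 1.26, which was 0.024 without F6, so its direction rested on that array. Among these 5 genes the groups did not overlap for mRpL22 alone, at −0.78 ± 0.72. Without F6 the differences of mRpL22, mRpL24 and mRpL48 were −0.77, −1.76 and −1.27.

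**Figure D4:**
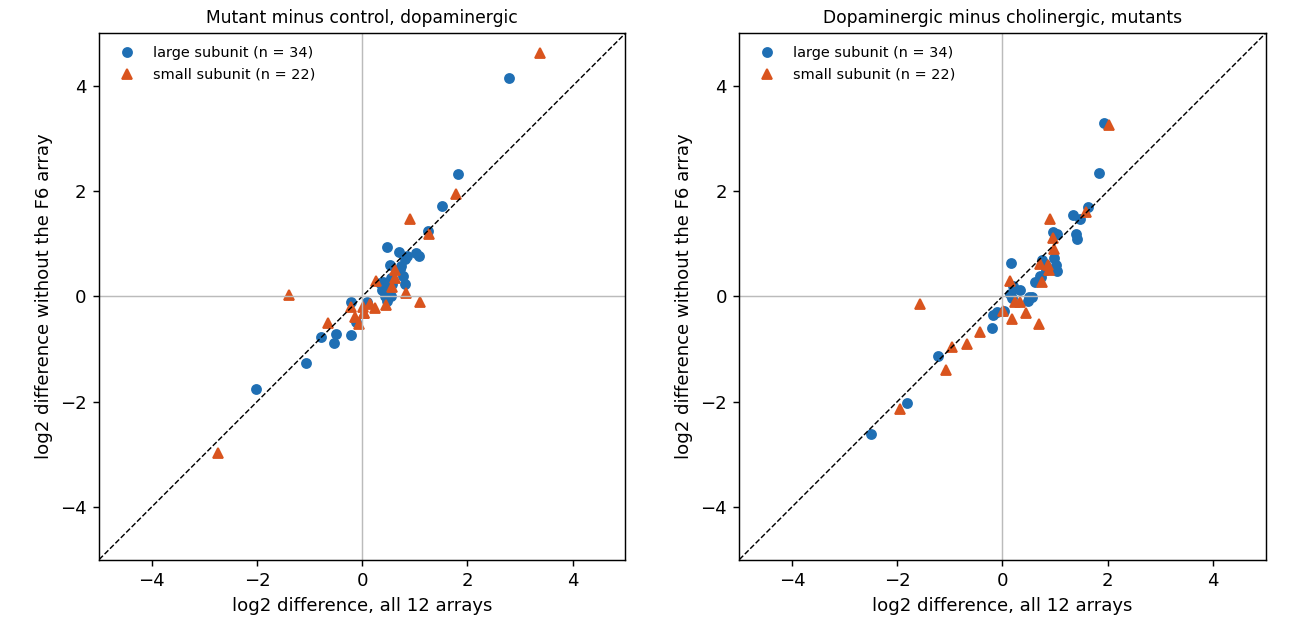
The log2 difference without the F6 array against the difference with all 12 arrays, for mutants minus controls in dopaminergic neurons (left) and for dopaminergic minus cholinergic neurons in mutants (right), with 34 large subunit genes (circles) and 22 small subunit genes (triangles). The dashed line marks equal values; many points near 0 lie below it, and the small subunit median moves from 0.25 to −0.13 on the left and from 0.40 to −0.11 on the right.

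In cholinergic neurons, mitoribosomal genes that read higher and lower in parkin mutants were similar in number. No gene of the 56 passed, against 0.0482% of all probe sets. Higher in mutants were 26 of 56 genes (46.4%), against 41.9% of all probe sets. The median difference was −0.11 over the large subunit, with 15 of 34 higher, and 0.09 over the small subunit, with 11 of 22 higher, and −0.17 over all probe sets. An unadjusted p under 0.05 was found for 5 genes, 3 of the large subunit that were lower and 2 of the small subunit that were higher, against 4.57% of all probe sets. The groups did not overlap for 8 genes, 6 of them lower in mutants, against 11.9% of all probe sets. Without cholinergic mutant replicate 3, which held the lowest reading of many genes, 31 of 56 were higher, against 42.5% of all probe sets. The medians were then 0.04 and 0.19, and −0.10 over all probe sets.

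mRpL20, whose bacterial counterpart is needed early in the assembly of the large subunit, had the smallest p of any mitoribosomal gene in any comparison. It measured 10.30, 7.04 and 8.17 in cholinergic controls and 4.64, 4.36 and 4.62 in cholinergic mutants. The mutants lay lower by a log2 difference of −3.97 ± 0.78 (SE), the adjusted p was 0.217, and 19 of the 12460 probe sets had a smaller p. Over the alternatives tried, its difference ran from −4.70 to −3.07 and its adjusted p from 0.081 to 0.693. In dopaminergic neurons it measured 4.79, 6.20 and 4.78 in controls and 4.72, 4.32 and 6.09 in mutants, so that the cholinergic controls were the group that stood apart. It reached the array median on 4 arrays, the 3 cholinergic controls and 1 dopaminergic control, and so entered the test through the group where it was high.

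mRpL23, which lies at the exit of the peptide tunnel, measured 7.76, 6.53 and 11.89 in cholinergic controls and 5.95, 4.72 and 4.22 in mutants. Its difference was −3.76 ± 1.18 (SE) with an adjusted p of 0.835, and 1 control array lay far above the others. mRpL47 was lower by −2.01 ± 0.83, mRpL51 by −0.84 ± 0.40 and mRpL11, part of the stalk base where translation factors bind, by −0.78 ± 0.40. Each of these 3 had an adjusted p of 0.939 and no overlap between the groups. The second probe set of mRpL47 differed by −1.99.

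mRpS25 was the gene with the smallest p among those higher in cholinergic mutants. It measured 6.64, 7.15 and 8.17 in cholinergic controls and 9.08, 10.75 and 8.84 in mutants. The mutants were higher without overlap, by 2.24 ± 0.80 (SE), with an adjusted p of 0.939. In dopaminergic neurons it measured 7.45, 6.68 and 8.71 in controls and 8.0, 6.82 and 8.04 in mutants, and these overlapped.

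mRpL50, a large subunit protein particular to mitochondria, measured 5.63, 5.06 and 4.70 in cholinergic controls and 10.32, 8.74 and 4.19 in mutants. Its mutant arrays thus lay on both sides of the controls, and its difference was 2.62 ± 1.21 with an adjusted p of 0.939. Without cholinergic mutant replicate 3, the lowest of the 3, the difference was 4.40 and passed the threshold with an adjusted p of 0.0402. The share of all probe sets called without that array is not given here. mRpL50 reached the array median on 3 arrays, 2 of them these cholinergic mutants. The remaining genes named by smallest p were mRpS7, from the head of the small subunit, at 1.52 ± 0.68, mRpL30 at 1.57 ± 0.89 and mRpL19 at 1.03 ± 0.70. The groups did not overlap for mRpL30, and they overlapped for mRpS7 and mRpL19.

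**Figure D5:**
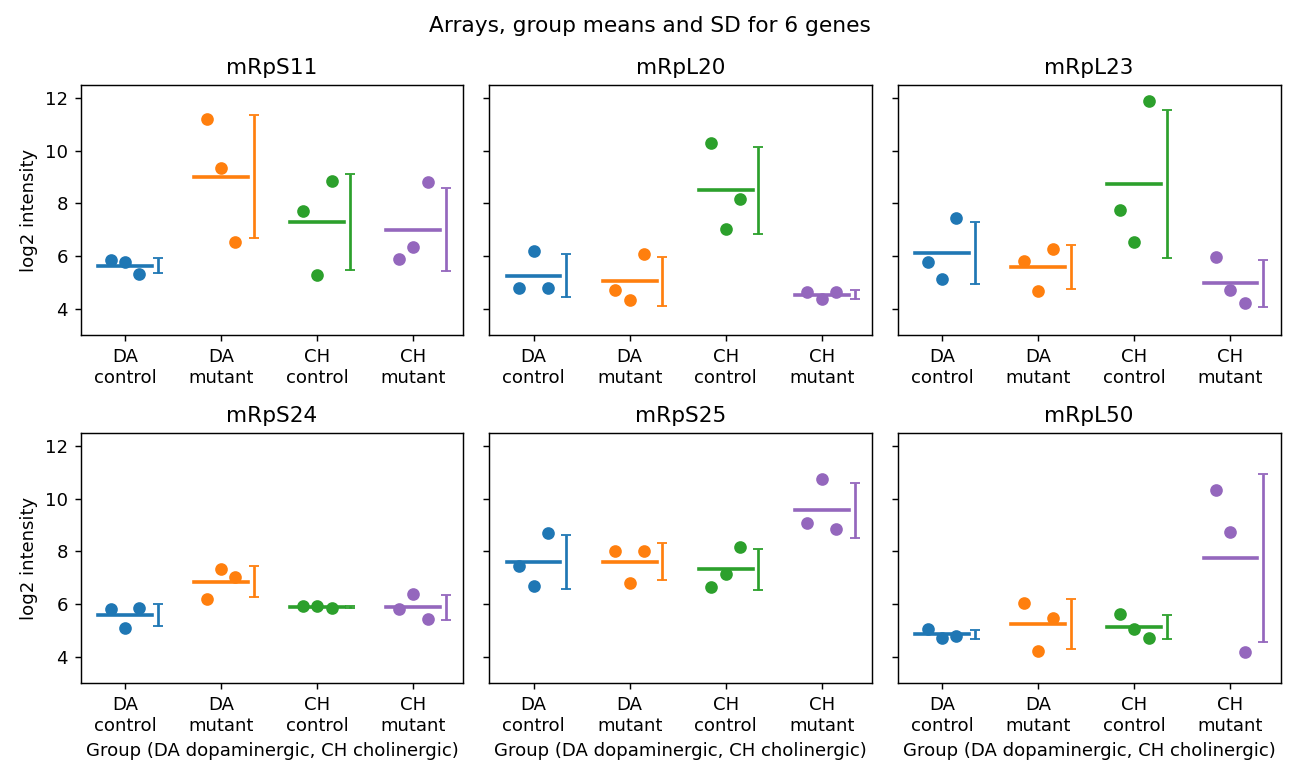
Log2 intensity of mRpS11, mRpL20, mRpL23, mRpS24, mRpS25 and mRpL50 on each of the 12 arrays (points, 3 per group), with the group mean (horizontal line) and SD (bar beside the points). mRpL20 is high in the 3 cholinergic control arrays (7.04 to 10.30) and at 4.36 to 4.64 in the cholinergic mutants, while mRpS11 spans 6.54 to 11.20 within the dopaminergic mutants.

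The difference of the mutant effects was tested directly, as the effect in dopaminergic minus that in cholinergic neurons. No gene of the 56 passed, as did 0% of all probe sets. It was above 0 for 38 genes (67.9%), against 57.7% of all probe sets, with a median of 0.69 over the large and 0.47 over the small subunit and 0.26 over all probe sets. An unadjusted p under 0.05 was found for 4 genes, all above 0, against 5.18% of all probe sets. Without F6 33 of the 56 genes were above 0, a share near the 55.6% of all probe sets. The medians were 0.34 for the large subunit, −0.12 for the small subunit and 0.15 over all probe sets. An unadjusted p under 0.05 was then found for 3 genes, against 4.23% of all probe sets.

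mRpL20 had the smallest p of the difference, at 3.75 ± 1.10 (SE) with an adjusted p of 0.773. It followed from the cholinergic arrays, since its dopaminergic effect was small beside its spread. Next above 0 were mRpL11 (1.50 ± 0.57), mRpL14 (1.55 ± 0.63), mRpS17 (1.25 ± 0.55) and mRpS24 (1.30 ± 0.59). Without F6 mRpL20 was at 3.23 and these 4 at 1.30, 1.22, 0.98 and 1.21. Below 0, with the smallest p, were mRpS25 (−2.23 ± 1.14), mRpS18A (−3.17 ± 1.96), mRpS7 (−1.49 ± 0.96), mRpL30 (−1.78 ± 1.26) and mRpL50 (−2.22 ± 1.70). Without F6 these were at −2.44, −3.40, −1.83, −1.68 and −2.34. All of these genes had an adjusted p of 0.773 with the 12 arrays. In both neuron types together, 13 of the 34 large subunit genes were higher in mutants in each type, 13 in dopaminergic neurons alone, 2 in cholinergic neurons alone, and 6 were lower in each. These are 38.2%, 38.2%, 5.88% and 17.6%, against 21.1%, 38.6%, 20.8% and 19.6% of all probe sets. For the 22 small subunit genes the counts were 6, 10, 5 and 1, or 27.3%, 45.5%, 22.7% and 4.55%. These direction counts include F6 and are not given without it. In dopaminergic neurons the small subunit directions depended on F6, as given above.

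In controls, dopaminergic and cholinergic neurons gave nearly the same mitoribosomal medians. No gene of the 56 passed, as did 0% of all probe sets, and 32 were higher in dopaminergic neurons (57.1%), against 54.1% of all probe sets. The median difference was 0.02 over the large subunit, 0.07 over the small subunit and 0.05 over all probe sets. At an unadjusted p under 0.05 there were 2 genes, mRpL20 and mRpL23, both lower in dopaminergic neurons, against 3.63% of all probe sets. The groups did not overlap for 4 genes, 1 higher and 3 lower, against 8.49% of all probe sets.

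mRpL20 was lower in dopaminergic than in cholinergic controls by −3.24 ± 0.78 (SE), with an adjusted p of 0.728. This used the same cholinergic control arrays as the cholinergic mutant comparison, so that it is not a separate observation. mRpL23 had a difference of −2.61 ± 1.18, mRpL45, which in mammals tethers the mitoribosome to the inner membrane, −1.06 ± 0.64, mRpS11 −1.64 ± 1.24 and mRpL47 −0.91 ± 0.83. Higher in dopaminergic controls, with the smallest p, were mRpL54 (group means of 6.74 and 5.61), mRpS18A (2.50 ± 1.39), mRpS31 (3.40 ± 2.13), mRpL24 (2.33 ± 1.80) and mRpL42 (0.61 ± 0.47). Of these 5 only mRpL42 had groups that did not overlap.

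In mutants, more mitoribosomal genes read higher in dopaminergic than in cholinergic neurons. Without F6 their share was near that of all probe sets. No gene of the 56 passed, against 0.0161% of all probe sets. Higher were 44 genes (78.6%), against 58.7% of all probe sets, with a median difference of 0.67 over the large subunit (28 of 34 higher), 0.40 over the small subunit (16 of 22 higher) and 0.27 over all probe sets. An unadjusted p under 0.05 was found for 8 genes, 7 of them higher, against 10.5% of all probe sets. The groups did not overlap for 10 genes, 9 of them higher, against 13.8% of all probe sets. Without F6 33 of the 56 genes were higher, a share near the 57.9% of all probe sets. The medians were 0.38 for the large subunit, −0.11 for the small subunit and 0.18 over all probe sets. An unadjusted p under 0.05 was then found for 6 genes, against 6.15% of all probe sets. With arrays centred on their medians 34 genes were higher and the medians were 0.36 and 0.08, with −0.04 over all probe sets.

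The gene with the smallest p was mRpL11. It measured 6.28, 6.90 and 7.21 in dopaminergic mutants and 5.45, 5.88 and 4.87 in cholinergic mutants, without overlap. Its difference was 1.40 ± 0.40 (SE) with an adjusted p of 0.450, and 1.20 without F6. Next were mRpL14 (1.42 ± 0.45), mRpL41 (1.47 ± 0.54), mRpL51 (0.98 ± 0.40) and mRpS24 (0.98 ± 0.42), all with an adjusted p of 0.450. Without F6 these 4 were at 1.10, 1.47, 0.73 and 0.89. For mRpL14 and mRpL51 too the groups did not overlap.

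Lower in dopaminergic mutants, with the smallest p, were mRpS25, mRpL50, mRpL12, mRpS7 and mRpL30. The difference was −1.94 ± 0.80 (SE) for mRpS25, with an adjusted p of 0.450 and no overlap. mRpL12, the protein of the stalk that recruits translation factors, measured 7.17, 7.13 and 7.76 in dopaminergic mutants and 6.63, 10.32 and 10.56 in cholinergic mutants. Its groups overlapped, and the difference was −1.82 ± 0.98 with an adjusted p of 0.451. Without F6 mRpS25, mRpL50, mRpL12, mRpS7 and mRpL30 were at −2.15, −2.62, −2.02, −1.40 and −1.13. This comparison shares its mutant arrays with the comparisons within each neuron type, so that mRpL11, mRpL14, mRpS24 and mRpS25 appear in several of them on the same readings.

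The 3 paralogs of the bacterial S18 protein differed in their readings. mRpS18A carries a small subunit symbol and was counted with the small subunit throughout, but its mammalian counterpart lies in the large subunit. The other genes were also placed by symbol alone, so it may not be the only such case. The counts and medians by subunit follow the symbols. It read above 10 on 3 arrays, 2 of dopaminergic controls and 1 of cholinergic mutants (10.09). mRpS18B measured 5.41 to 6.06 in dopaminergic controls, and its highest readings were 8.10 on F6 and 7.25 on cholinergic mutant replicate 3. mRpS18C was high on F6, on cholinergic mutant replicate 1 (9.51) and on cholinergic control replicate 1 (9.04). Their mutant effects in dopaminergic neurons were −2.75, 0.82 and 1.10, and without F6 −2.98, 0.06 and −0.12. None of the 3 passed in any comparison.

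Genes for 2 small subunit proteins go by other symbols, tko and bonsai, and were not counted above. tko encodes the counterpart of bacterial S12, a decoding protein whose fly mutants are sensitive to mechanical shock. It measured 5.94, 6.24 and 6.41 in dopaminergic controls and 7.00, 6.59 and 7.38 in dopaminergic mutants, and these did not overlap. The difference was 0.79 ± 0.39 (SE) with an adjusted p of 0.935, and 0.60 without F6. Against cholinergic mutants, which measured 6.34, 5.98 and 5.55, it was higher by 1.03 ± 0.39 with an adjusted p of 0.450, and by 0.84 without F6. bonsai differed by −0.33 ± 0.79 between dopaminergic mutants and controls, and by −0.76 without F6.

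Other genes of mitochondrial gene expression were followed in 4 lists, and 0 of them passed in any comparison. At an unadjusted p under 0.05 there were 2 of them in cholinergic mutants against controls, 1 in the difference of the effects and 2 between the neuron types in mutants, of 24 tested genes, against 4.57%, 5.18% and 10.5% of all probe sets. Without F6 there were 0 in the difference of the effects and 1 between the neuron types in mutants. Of 9 mitochondrial translation factors with a probe set of their own 4 were bright enough to be tested, and all 4 were lower in cholinergic mutants than in controls, where 41.9% of all probe sets were higher. The largest of these differences was that of mRRF1, a factor that recycles the mitoribosome after translation. It measured 5.20, 9.55 and 9.94 in cholinergic controls and 4.96, 4.94 and 4.73 in mutants, lower without overlap by −3.35 ± 1.10 (SE) with an adjusted p of 0.848. Of 8 tested tRNA charging genes 2 were higher in cholinergic mutants, among them AsnRS-m by 1.55 ± 0.60. Of 8 tested genes of mitochondrial genome expression 1 was higher there, and TFAM, which packages mitochondrial DNA, differed by −0.65 ± 0.50.

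In dopaminergic mutants against controls, 1 of 4 translation factors, 6 of 8 tRNA charging genes and 5 of 8 genome expression genes were higher, against 59.7% of all probe sets. Without F6 these counts were 0, 5 and 4, against 48.0%. Of the 4 tested nuclear regulators 3 were higher in dopaminergic mutants, with and without F6, and 4 in cholinergic mutants. The exception was ewg, the fly counterpart of a mammalian activator of respiratory genes. It measured 4.28, 6.31 and 3.73 in dopaminergic mutants and 10.60, 11.11 and 6.75 in cholinergic mutants, a difference of −4.72 ± 1.32 (SE) with an adjusted p of 0.437, and −4.19 without F6. Its readings in controls overlapped, at 6.01, 8.50 and 7.83 in dopaminergic and 9.08, 5.32 and 7.99 in cholinergic neurons.

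Beside the mitoribosome, the subunits of oxidative phosphorylation and the cytosolic ribosome gave other medians for the same comparison. In dopaminergic mutants against controls, 31 of 54 tested oxidative phosphorylation genes were higher, with a median of 0.14, and 11 of 37 cytosolic ribosomal protein genes, with a median of −0.75. Without F6 these medians were 0.07 and −0.08, against 0.15 for the mitoribosomal genes. The counts include F6. The difference between these lists was not tested.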

How the data were processed

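The authors deposited 1 table of log2 intensities for 18952 probe sets on 12 arrays. How they normalized and summarised the arrays is not given in the sources used here, and unequal array medians show that the deposited values were not on one common distribution. The depth of an array has no count, so the number of arrays limits the precision. After 183 control probe sets were left out, 18769 remained, of which 13647 had 1 gene symbol in the platform annotation, 402 had several and 4720 had no symbol. All 69 mitoribosomal symbols matched the reference gene table, which was used for names and for which genes neighbour each other. No coordinates or sequences are given, and promoter motifs were not analysed here.

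The values were used as deposited. Group differences came from limma 3.58.1 under R 4.3.3 (lmFit, eBayes with a trend, 2-sided) over the 12460 probe sets that passed the filter, with 1 coefficient for each of the 4 groups. There were 8 residual degrees of freedom and 3.07 from the prior. The fit was also run on simulated data with independent noise and no effect shared by an array. That run checked only that planted changes were recovered on average, so it says nothing on the p-values for these arrays. Summaries and plots used Python 3.11.15, pandas 2.3.3 and matplotlib 3.10.9.

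The mitoribosomal genes and the other lists were chosen with earlier results of these data known, so lists are described by counts and medians with no test. Named genes were, per comparison, the 5 with the smallest p in each direction, the 5 steadiest, the 5 largest deviations on F6 in each direction, the 5 widest ranges within a group, the S18 paralogs, tko and bonsai, and a few genes of the related lists. Replicates are numbered in accession order and do not pair samples. Alternatives were quantile normalization, centring, testing every probe set, a stricter filter (array percentile 65), an untrended eBayes prior, array weights, only the 2 groups compared, title codes that begin with D as a block, averaging the probe sets of a gene, a low-reading limit of 2 in place of 3, and leaving out each array. The arrays whose codes do not begin with D were also fitted alone, an alternative chosen after seeing the data. No cholinergic mutant array has a D code, so in that neuron type the codes partly follow genotype. What the codes mean is not given in the sources used here.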

Additional observations from a re-analysis of the deposited data

How the results depend on the processing

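Under the 22 alternatives 1056 values were computed for the 50 pairs of a comparison and a gene named for its small p there. Not every alternative was computed for every pair. Of the 50 pairs 1 turned its sign, that of mRpS5 in dopaminergic mutants. It was at 0.028 with array weights and at −2.41 to 0.024 when arrays were left out, the last without F6. The pairs were chosen for a small p on the same arrays, so their steady sign is not separate support. Genes named for other reasons were not among these pairs, and some of them turned too. Without F6 mRpL27 went from 0.48 to −0.08 and mRpS18C from 1.10 to −0.12, both in dopaminergic mutants. Calls appeared for 3 differences. mRpS11 passed with array weights in dopaminergic mutants against controls (5.10) and in dopaminergic against cholinergic mutants (4.16, adjusted p 0.048), where 1 gene was then called in each; the second probe set of mRpS11 stood at −0.93 in the latter comparison, and the estimate of the weights stopped before full convergence. Without cholinergic mutant replicate 3, mRpL50 passed (4.40), so that the cholinergic count ran from 0 to 1 when arrays were left out. The share of all probe sets called under these settings is not given here, so these calls cannot be set against it.

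Leaving out 1 array at a time moved the median differences between mutants and controls in dopaminergic neurons from 0.24 to 0.71 for the large and from −0.13 to 0.59 for the small subunit. In cholinergic neurons the large subunit ran from −0.32 to 0.091. The difference of the effects ran from 0.34 to 0.87 for the large and from −0.12 to 0.61 for the small subunit. Between the neuron types in mutants it ran from 0.38 to 0.88 and from −0.11 to 0.71. The lowest value was that without F6 in each dopaminergic range.

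Array weights gave large subunit medians of 0.33 for the difference of the effects and 0.42 between the neuron types in mutants. Centring gave 0.36 and, for the small subunit, 0.083 between the neuron types in mutants. Among arrays whose codes do not begin with D, chosen after seeing the data, the large subunit median in cholinergic neurons was 0.18. This left cholinergic control replicate 3 as the only control array of that neuron type. The deviation on F6 was 0.65 over the dimmest part of the genes after quantile normalization, and 0.67 over the dimmest and 0.16 over the brightest part after centring. The causes were not tested. The block by title code changed no call. With 3 arrays a group and most readings below 8, small differences were not detectable here.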
